A study of Homo sapiens with 15 samples.

Results

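A set of 10 genes of the YAP and TEAD transcriptional output was followed through TF knockdown in HCC95 cells, an established human cell line of lung squamous cell carcinoma (LUSC). The genes were taken by name from the 61544 genes of the count table, by a list drawn up with earlier results of these data known, and all 10 passed the filter on low counts that left 25108 genes for testing. They are the coactivators YAP1 and WWTR1 (which encodes TAZ), the TEAD factors TEAD1 and TEAD4, the targets CCN1, CCN2 and ANKRD1, and the inhibitory genes AMOTL1, AMOTL2 and LATS2. RNA-seq covered 15 libraries in 5 groups of 3. Cells in 4 groups were transfected with an siRNA, a short double-stranded RNA that guides cleavage of the matching mRNA, against KLF5 (siKLF5b), TP63 (siTP63b), SOX2 (siSOX2b) or GRHL2 (siGRHL2a), and cells of the fifth group with the negative control siRNA siNC1. A single siRNA stood for each TF, and all libraries came from a single cell line. The study's statistics section speaks in general of independent experiments, but no source used here says of these libraries that replicates came from separate cultures. A p-value therefore sets a difference against the spread between these libraries only, a spread estimated over all 5 groups together. The time from transfection to RNA harvest is not given in the sources used here.

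The Hippo pathway is a kinase cascade that restrains growth and responds to cell contact, cell shape and tension. Its core kinases, with their scaffolds, activate the LATS kinases, which phosphorylate YAP and TAZ and so keep them in the cytoplasm or send them to degradation. Without that mark YAP and TAZ enter the nucleus, and since neither binds DNA alone they act through TEAD factors at promoters and enhancers. Several of their targets, AMOTL2 and LATS2 among them, encode inhibitors of YAP, which makes a negative feedback loop. In squamous epithelia YAP activity is known from basal, proliferating cells. The pathway acts largely on where the YAP and TAZ proteins are, and mRNA levels do not show that.

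The TEAD factors recognize the core GGAATG, which reads CATTCC on the other strand. RefSeq promoters, taken as 250 bases before to 50 bases after each annotated start (GRCh38.p14, the same build as the authors' hg38), were found for 7 of the 10 genes in 9 entries. Of these 7 genes, 5 held at least 1 TEAD core on either strand, namely YAP1, CCN2, ANKRD1, AMOTL2 and LATS2. At least 1 core stood in 14% of the 35116 promoters of the same length, at least 2 in 1.37% and at least 3 in 0.128%. CCN2 had 3 cores, beginning 169, 104 and 95 bases upstream of the start, ANKRD1 had 2, beginning 220 and 128 bases upstream, and AMOTL2 had 1 at 69 bases upstream in 1 of its 2 entries, the one that starts further downstream. The 250 bases before the start of these 3 targets are shown because 2 of them moved furthest after siKLF5b and AMOTL2 moved there as well. They are written 5′ to 3′ on the strand of the gene, the minus strand for all 3, with the TEAD cores in capitals. They lie at chr6:131951373-131951622 (CCN2), chr10:90921088-90921337 (ANKRD1) and chr3:134374448-134374697 (AMOTL2). A match is a description of the letters and no evidence of binding.
CCN2: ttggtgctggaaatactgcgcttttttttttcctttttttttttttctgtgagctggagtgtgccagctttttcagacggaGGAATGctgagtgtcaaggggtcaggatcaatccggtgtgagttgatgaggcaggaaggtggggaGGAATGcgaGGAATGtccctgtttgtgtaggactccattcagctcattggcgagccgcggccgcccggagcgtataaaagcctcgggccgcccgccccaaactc
ANKRD1: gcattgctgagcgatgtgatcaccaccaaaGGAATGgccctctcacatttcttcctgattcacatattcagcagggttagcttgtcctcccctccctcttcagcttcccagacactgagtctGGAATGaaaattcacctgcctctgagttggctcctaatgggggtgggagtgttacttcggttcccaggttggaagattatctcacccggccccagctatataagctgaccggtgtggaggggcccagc
AMOTL2: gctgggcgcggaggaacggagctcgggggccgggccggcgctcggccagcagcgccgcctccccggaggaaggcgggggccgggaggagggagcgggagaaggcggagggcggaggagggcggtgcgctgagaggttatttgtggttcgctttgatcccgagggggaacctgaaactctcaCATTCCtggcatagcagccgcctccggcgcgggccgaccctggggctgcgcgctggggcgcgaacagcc

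Library totals were 15655495 to 34229063 counts. Between libraries of the same group the chi-square per gene was 2.04 to 8.10 over 15 pairs, above the value for reads counted independently. If each mate of a pair was counted on its own, which is not given in the sources used here, counting noise would be larger. The lowest of these values need then not exceed it. The count columns came as a set of 6 libraries (siNC1 and siKLF5b) and a set of 9 (siTP63b, siSOX2b and siGRHL2a). Among genes with 20 to 500 counts, 49.7% to 50.7% of counts were even numbers in the first set and 66.1% to 69.0% in the second. Set and knockdown cannot be told apart where siNC1 is set against a group of the second set, so tests were made within a set. The targeted mRNAs were lower in their own group, KLF5 at 72.5 ± 1.13 CPM (counts scaled to library size with TMM factors, mean ± SD, n = 3) against 113 ± 8.67 in siNC1, TP63 at 363 ± 22.3 against 690 ± 38.2 in siSOX2b and 831 ± 28.3 in siGRHL2a, SOX2 at 8.97 ± 1.63 against 29.5 ± 2.23 in siTP63b and 20.2 ± 1.54 in siGRHL2a, and GRHL2 at 91.3 ± 0.56 against 117 ± 2.39 in siTP63b and 100.2 ± 4.58 in siSOX2b. All 8 squamous epithelial markers were detected, with a summed level of 10185 to 11700 CPM in siNC1, 6225 to 7282 in siKLF5b, 6584 to 7611 in siTP63b, 9424 to 10381 in siSOX2b and 11873 to 12244 in siGRHL2a. Most of this sum was KRT5, at 8633 ± 753 CPM in siNC1 and 5363 ± 591 in siKLF5b. In siKLF5b against siNC1, 5 of the 8 were lower at an adjusted p below 0.05 in the edgeR test used below (12.9% of all genes tested). With an absolute log2FC above 0.75 as well, 3 were lower (1.37%). The 5 were KRT17 (log2FC −1.47), KRT6A (−1.29), KRT14 (−1.26), KRT5 (−0.69) and CDH1 (−0.33), and the median of the 8 was −0.51. The list did not move as a whole. SOX2 was higher in siKLF5b (106.9 ± 2.09 CPM against 73.3 ± 7.15), and EPCAM and TP63 did not pass that test. TP63 and SOX2 are also siRNA targets here. The 7 fibroblast markers summed to at most 9.995 CPM in any library, the 4 endothelial markers to at most 15.1 and the 5 immune markers to at most 39.8. Single genes made up most of the last 2 sums. They were VWF (14.5 ± 0.14 CPM in siNC1) and CD68 (34.6 ± 5.13 CPM in siGRHL2a). The part of the squamous marker level in the results below was not tested. In bulk RNA, fewer cells with a transcript and less of it per cell cannot be told apart.

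After KLF5 knockdown the YAP and TEAD genes moved in both directions. ANKRD1 fell to 0.389 times its level in siNC1, while CCN2, at a level of few CPM, rose 1.80-fold. TEAD1, AMOTL2 and WWTR1 fell by less, AMOTL1 and YAP1 rose, and TEAD4, CCN1 and LATS2 did not pass the test. At an adjusted p below 0.05 alone (edgeR quasi-likelihood test, Benjamini-Hochberg over the 25108 genes), 4 of the 10 were lower, beside 12.9% of all genes tested, and 3 were higher, beside 10.3%. With an absolute log2FC above 0.75 as well, 1 was lower (1.37% of all genes) and 1 higher (1.89%). The median log2FC of the 10 genes was −0.052, and over all genes tested it was −0.0097.

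Among the 3 knockdowns of the second set, no YAP or TEAD gene passed both thresholds in any comparison, and smaller differences were many. YAP1, CCN1, ANKRD1 and AMOTL2 were higher, and AMOTL1 was lower, in siTP63b than in either other group. Both comparisons use the same siTP63b libraries, and so are not independent. Against siSOX2b, 2 of the 10 genes were lower in siTP63b at adjusted p alone (15.4% of all genes) and 5 higher (16.4%), with 0 past both thresholds in either direction (2.82% lower and 3.88% higher). Against siGRHL2a, 2 were lower in siTP63b (13.4%) and 6 higher (13.6%), again with 0 past both thresholds (3.21% and 2.18%). Between siSOX2b and siGRHL2a, 1 was lower in siSOX2b (12.7%) and 3 higher (11.8%), with 0 past both thresholds (2.27% and 1.05%). These counts of 0 come from edgeR, and DESeq2 gave 0 in each as well. At an unadjusted p below 0.05, 8, 9 and 6 of the 10 genes differed in the 3 comparisons. The share of all genes at that p was not computed here, so these 3 counts cannot be judged against it. The median log2FC of the 10 genes was 0.12, 0.21 and 0.036 in the 3 comparisons, beside 0.00059, −0.0090 and −0.018 over all genes.

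**Figure D1:**
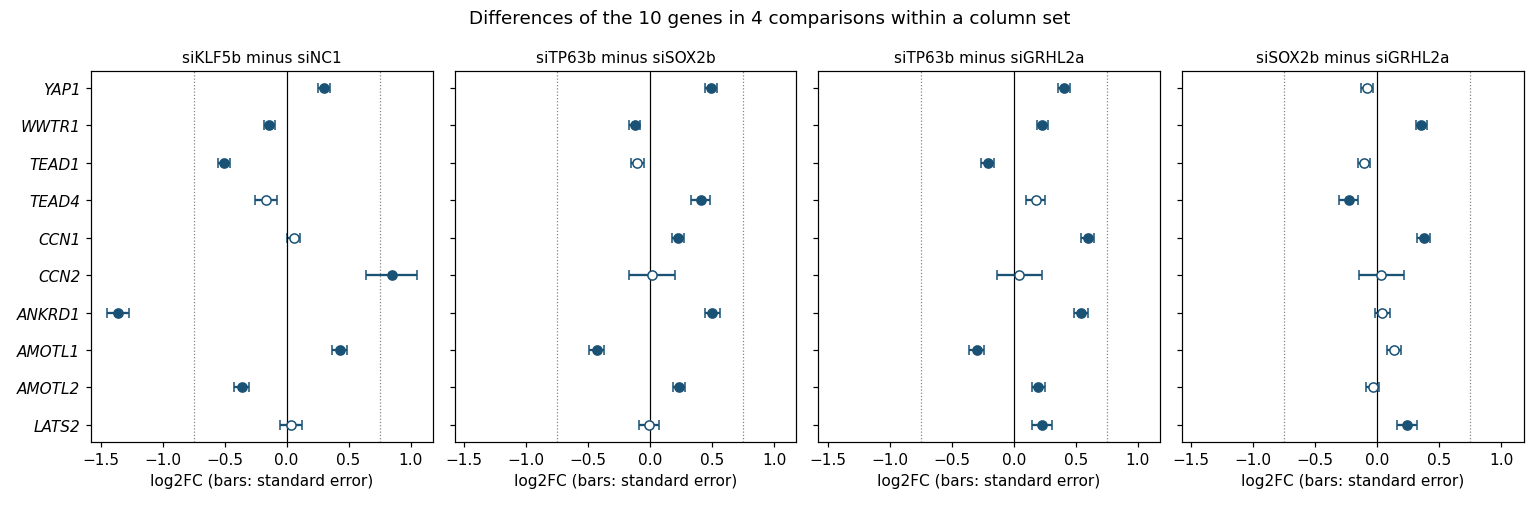
Log2FC of the 10 genes (rows) in the 4 comparisons within a set of columns (panels), with bars for the standard error of the edgeR fit of 15 libraries. ANKRD1 at −1.36 and CCN2 at 0.85 after siKLF5b lie furthest from 0, and no point of the other 3 panels passes an absolute log2FC of 0.75.

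YAP1 (chr11:102110447-102233424, plus strand), the main coactivator of the pathway, rose in siKLF5b. Its levels were 135.6, 135.4 and 137.3 CPM in siNC1 and 168.3, 167.8 and 167.9 CPM in siKLF5b. The groups did not overlap, and replicates lay within 2 CPM of each other. The log2FC was 0.30 ± 0.049 (SE, adjusted p = 1.62e-05), below the fold threshold. In the second set YAP1 stood at 189.96, 184.7 and 184.9 CPM in siTP63b, at 139.4, 136.2 and 122.4 CPM in siSOX2b and at 142.8, 135.7 and 143.8 CPM in siGRHL2a. The siTP63b libraries lay above all the others, while siSOX2b and siGRHL2a overlapped. The difference was 0.49 ± 0.048 from siSOX2b (adjusted p = 1.15e-09) and 0.41 ± 0.048 from siGRHL2a (adjusted p = 5.55e-08) on the log2 scale. Between siSOX2b and siGRHL2a it was −0.084 ± 0.048 (adjusted p = 0.215). A gene on the opposite strand within the YAP1 span, ENSG00000254422, held 16.4% as many counts as YAP1, and whether the counting used strand is not given in the sources used here.

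WWTR1 (chr3:149517235-149736714, minus strand) encodes TAZ, the paralog of YAP. It moved the other way from YAP1 in siKLF5b. The 3 siKLF5b libraries, at 205.9 to 216.1 CPM, lay just below the 3 of siNC1, at 229.4 to 233.2 CPM. The log2FC was small (−0.14 ± 0.045, adjusted p = 0.021), and this p was 0.0616, 0.0786 and 0.0752 without siNC1 replicate 2, siKLF5b replicate 2 or siKLF5b replicate 3. Among the other knockdowns the order was siSOX2b (177.0 to 182.7 CPM), siTP63b (160.9 to 167.5 CPM) and siGRHL2a (136.0 to 146.9 CPM), with no overlap between neighbours. WWTR1 was higher in siSOX2b than in siGRHL2a by 0.36 ± 0.045 (adjusted p = 3.05e-07) and in siTP63b than in siGRHL2a by 0.23 ± 0.045 (adjusted p = 0.000169). It was lower in siTP63b than in siSOX2b by a log2FC of −0.13 ± 0.044 (adjusted p = 0.0285), and this p was 0.0714 without siTP63b replicate 3 and 0.0777 without siSOX2b replicate 2.

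TEAD1 (chr11:12674421-12944737, plus strand) is one of the DNA-binding partners of YAP and TAZ. Its levels were 224.6, 241.8 and 247.6 CPM in siNC1 and 160.6, 173.8 and 168.7 CPM in siKLF5b. The groups stood well apart, and the log2FC was −0.51 ± 0.051 (adjusted p = 5.83e-09). TEAD1 in the second set was 242.1 to 249.3 CPM in siTP63b, 244.4 to 274.8 CPM in siSOX2b and 273.5 to 293.4 CPM in siGRHL2a. Neighbouring groups overlapped, and the difference that passed was that of siTP63b from siGRHL2a (log2FC −0.21 ± 0.050, adjusted p = 0.00155). TEAD1 differed by −0.10 ± 0.050 between siTP63b and siSOX2b (adjusted p = 0.119), which became −0.16 (adjusted p = 0.0181) without siSOX2b replicate 3, the lowest of that group.

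TEAD4 (chr12:2959330-3040676, plus strand), another TEAD factor, was low in the first set, at 16.6 to 20.9 CPM in siNC1 and 16.4 to 16.7 CPM in siKLF5b. These groups overlapped, and the log2FC of −0.16 ± 0.089 did not pass (adjusted p = 0.198). Among the 9 libraries of the second set, TEAD4 was 35.5, 35.1 and 36.5 CPM in siTP63b, 25.95, 25.6 and 29.4 CPM in siSOX2b and 32.4, 33.3 and 29.0 CPM in siGRHL2a. It was higher in siTP63b than in siSOX2b (log2FC 0.41 ± 0.078, adjusted p = 0.00013). Against siGRHL2a the difference of siTP63b was 0.18 ± 0.077 (adjusted p = 0.0894), although the libraries did not overlap. TEAD4 was lower in siSOX2b than in siGRHL2a by a log2FC of −0.23 ± 0.078 (adjusted p = 0.0294), with overlapping libraries, and the adjusted p was between 0.103 and 0.146 without siSOX2b replicate 1, siSOX2b replicate 2, siGRHL2a replicate 1 or siGRHL2a replicate 2.

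ANKRD1 (chr10:90912096-90921087, minus strand) encodes an ankyrin repeat protein best known from heart muscle and is a much used readout of YAP activity. Its levels were 16.8, 18.8 and 18.3 CPM in siNC1 and 6.04, 7.77 and 7.06 CPM in siKLF5b. Every siKLF5b library was below every siNC1 library, and the log2FC of −1.36 ± 0.091 (adjusted p = 7.24e-13) was the largest of the 10 genes in any comparison. It lay between −1.47 and −1.27 in every alternative tried. In the second set ANKRD1 stood at 156.6, 153.7 and 135.3 CPM in siTP63b, 103.1, 103.8 and 108.0 CPM in siSOX2b and 100.6, 104.6 and 100.8 CPM in siGRHL2a. It was higher in siTP63b than in siSOX2b by 0.50 ± 0.058 (adjusted p = 3.19e-08) and than in siGRHL2a by 0.54 ± 0.058 (adjusted p = 8.09e-09). The siSOX2b and siGRHL2a libraries overlapped, with a log2FC of 0.041 ± 0.058 (adjusted p = 0.668). No listed gene overlapped ANKRD1.

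CCN2 (chr6:131948176-131951372, minus strand), which encodes the matricellular protein CTGF, is the other standard readout, and it moved opposite to ANKRD1 in siKLF5b. Its levels were 1.42, 1.48 and 2.31 CPM in siNC1 and 2.93, 3.25 and 3.31 CPM in siKLF5b. The groups did not overlap, and siNC1 replicate 3 lay between the other siNC1 libraries and siKLF5b. The log2FC was 0.85 ± 0.21 (adjusted p = 0.00266). It fell under the fold threshold of 0.75 without siNC1 replicate 1 or siNC1 replicate 2, where the count of higher genes was 0, and its range over all alternatives was 0.71 to 1.11, with adjusted p from 0.000687 to 0.0297. Only 27 to 98 counts per library lay behind these values, the lowest depth of the 10 genes. All 9 counts of the second set were even numbers, and if each mate of a pair was counted on its own there, which is not given in the sources used here, fewer fragments than counts lay behind them. With the counts of that set halved, the SE of the CCN2 differences within it was 0.19 to 0.20. In the second set the 9 libraries lay between 2.43 and 3.18 CPM with all 3 groups overlapping, and none of the 3 differences passed (log2FC 0.015 ± 0.18, 0.046 ± 0.18 and 0.031 ± 0.18, adjusted p of 0.886 to 0.964). Differences of the order of this SE were not detectable at this depth.

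CCN1 (chr1:85580761-85584589, plus strand) encodes CYR61, a matricellular protein and a close relative of CCN2. Its levels were 43.2, 47.4 and 45.3 CPM in siNC1 and 45.7, 48.0 and 47.3 CPM in siKLF5b. The groups overlapped, and the log2FC was 0.056 ± 0.055 (adjusted p = 0.524). Its levels in the other knockdowns were 116.3, 110.3 and 117.1 CPM in siTP63b, 95.9, 98.9 and 100.04 CPM in siSOX2b and 77.0, 75.5 and 75.001 CPM in siGRHL2a. All 3 groups stood apart from each other. CCN1 was higher in siTP63b than in siGRHL2a by 0.60 ± 0.049 (adjusted p = 4.75e-11), in siSOX2b than in siGRHL2a by 0.37 ± 0.050 (adjusted p = 8.89e-07) and in siTP63b than in siSOX2b by 0.22 ± 0.049 (adjusted p = 0.000669). The first of these was the largest difference of the 10 genes within the second set.

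AMOTL1 and AMOTL2 encode angiomotin-like junction proteins that bind YAP and hold it in the cytoplasm, and their mRNAs moved in opposite directions. AMOTL1 (chr11:94706431-94876748, plus strand) stood at 91.3, 82.4 and 84.6 CPM in siNC1 and 113.1, 118.9 and 116.2 CPM in siKLF5b. It rose by 0.43 ± 0.060 (adjusted p = 2.02e-06), with no overlap. AMOTL2 (chr3:134355347-134375479, minus strand) stood at 61.3, 59.3 and 56.7 CPM in siNC1 and 44.3, 44.9 and 48.9 CPM in siKLF5b. It fell, also with no overlap (log2FC −0.36 ± 0.058, adjusted p = 1.57e-05). Compared with the other knockdowns of its set, and not with a control, siTP63b had less AMOTL1 and more AMOTL2. AMOTL1 was 70.4, 63.9 and 73.0 CPM there, 95.3, 99.1 and 85.0 CPM in siSOX2b and 80.9, 84.7 and 89.5 CPM in siGRHL2a. The siTP63b libraries were the lowest, with a log2FC of −0.43 ± 0.060 from siSOX2b (adjusted p = 8.72e-07) and −0.30 ± 0.059 from siGRHL2a (adjusted p = 0.000233). AMOTL2 was 130.6, 122.5 and 139.4 CPM in siTP63b, 112.6, 109.2 and 112.3 CPM in siSOX2b and 110.4, 118.2 and 113.8 CPM in siGRHL2a. Here the siTP63b libraries were the highest, by 0.23 ± 0.052 over siSOX2b (adjusted p = 0.000792) and 0.20 ± 0.052 over siGRHL2a (adjusted p = 0.00433). Between siSOX2b and siGRHL2a neither passed (AMOTL1 0.13 ± 0.059, adjusted p = 0.0989, and AMOTL2 −0.035 ± 0.052, adjusted p = 0.683). The difference of AMOTL1 did pass without siSOX2b replicate 3 (0.21, adjusted p = 0.0129) or siGRHL2a replicate 3 (0.19, adjusted p = 0.04). Counts of ENSG00000256469, on the opposite strand within the AMOTL1 span, came to 21.0% of those of AMOTL1.

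LATS2 (chr13:20973036-21061586, minus strand) encodes a kinase that phosphorylates YAP and TAZ and is itself a target of theirs. It stood at 19.4 to 21.4 CPM in siNC1 and 19.6 to 22.7 CPM in siKLF5b, with overlapping groups and a log2FC of 0.035 ± 0.091 (adjusted p = 0.837). Its levels in the second set were 37.0, 34.5 and 43.6 CPM in siTP63b, 40.7, 38.4 and 36.7 CPM in siSOX2b and 33.6, 35.0 and 29.6 CPM in siGRHL2a. It was lowest in siGRHL2a, by 0.24 ± 0.080 below siSOX2b (adjusted p = 0.0273) and 0.23 ± 0.080 below siTP63b (adjusted p = 0.0324), and siTP63b and siSOX2b did not differ past the test (log2FC −0.011 ± 0.080, adjusted p = 0.941). The libraries of siTP63b and siGRHL2a overlapped, and both calls depended on single libraries. The first had an adjusted p of 0.0985, 0.0514 and 0.129 without siSOX2b replicate 1, siSOX2b replicate 2 or siGRHL2a replicate 3, and the second one of 0.218 and 0.162 without siTP63b replicate 3 or siGRHL2a replicate 3.

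**Figure D2:**
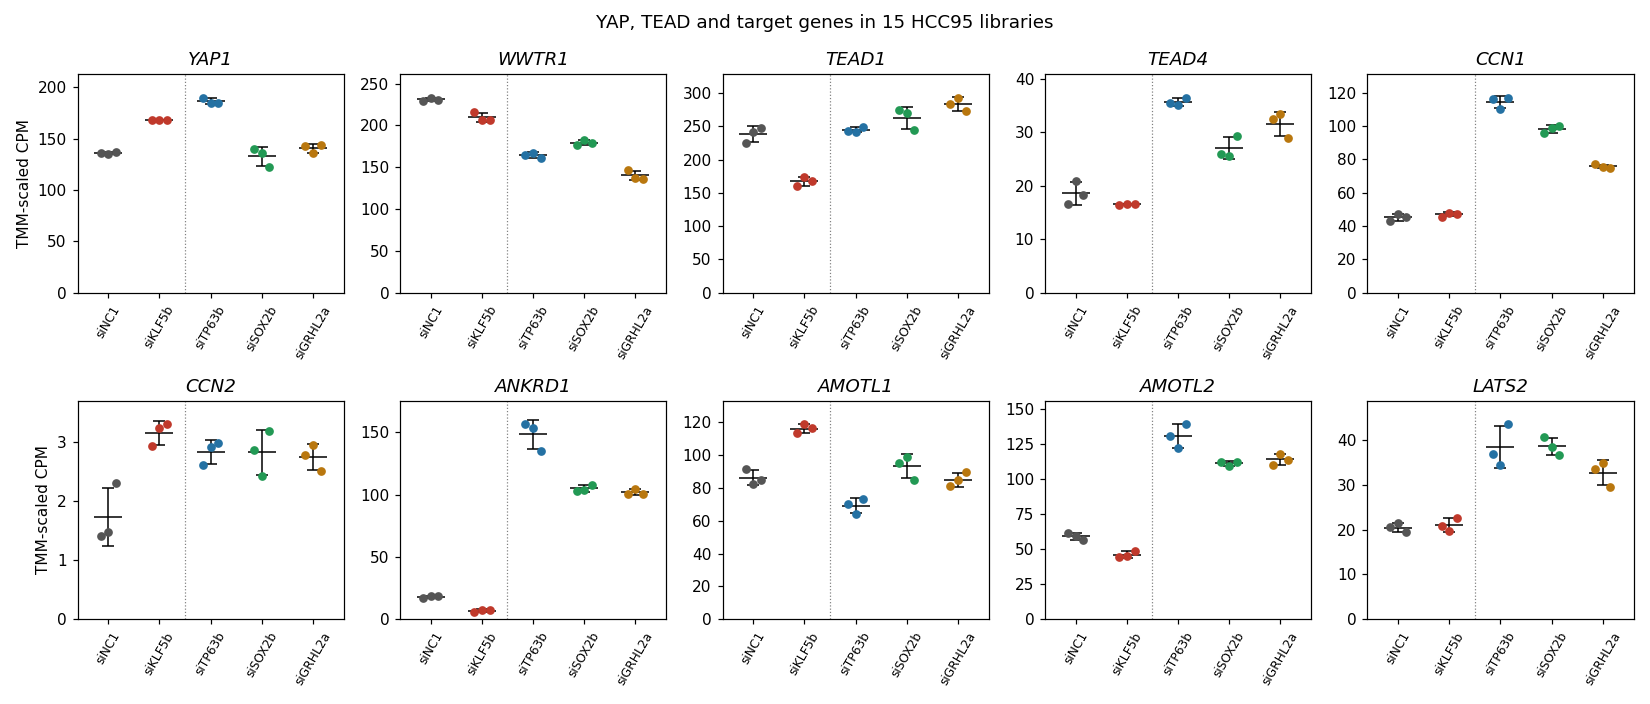
TMM-scaled CPM of the 10 genes, one panel per gene with its own axis, in the 5 groups (points are libraries, 3 per group). ANKRD1 stands at 6.04 to 18.8 CPM in siNC1 and siKLF5b and at 100.6 to 156.6 CPM in the other 3 groups, and CCN2 stays at or below 3.31 CPM throughout.

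Across the sets the levels differed far more than within them for several of these genes, and set and knockdown cannot be told apart there. In 5 of the 10 genes (TEAD4, CCN1, ANKRD1, AMOTL2 and LATS2) all 9 libraries of siTP63b, siSOX2b and siGRHL2a lay above all 6 of siNC1 and siKLF5b, as they did in 14.5% of all genes tested. In WWTR1 they all lay below, as in 14.2% of all genes. The widest gap was that of ANKRD1, with means of 149 ± 11.6 CPM in siTP63b, 105 ± 2.68 in siSOX2b and 102 ± 2.25 in siGRHL2a against 17.9 ± 1.05 in siNC1 and 6.95 ± 0.87 in siKLF5b (SD, n = 3). AMOTL2 ranked the groups in almost the same order, at 131 ± 8.45 CPM in siTP63b, 114 ± 3.92 in siGRHL2a, 111 ± 1.90 in siSOX2b, 59.1 ± 2.29 in siNC1 and 46.0 ± 2.52 in siKLF5b. CCN1 went from 115 ± 3.71 CPM in siTP63b through 98.3 ± 2.16 in siSOX2b and 75.8 ± 1.07 in siGRHL2a to 47.0 ± 1.17 in siKLF5b and 45.3 ± 2.12 in siNC1. In both genes 1 pair of neighbours overlapped, siGRHL2a with siSOX2b for AMOTL2 and siKLF5b with siNC1 for CCN1. YAP1 itself did not follow the sets, since siNC1 (136 ± 1.04 CPM) lay between siGRHL2a (141 ± 4.44) and siSOX2b (133 ± 9.06) and overlapped both. AMOTL1 in siNC1 (86.1 ± 4.63 CPM) likewise lay between siSOX2b (93.1 ± 7.32) and siGRHL2a (85.0 ± 4.32). CCN2 was lowest in siNC1 (1.74 ± 0.50 CPM), with the other 4 groups at 2.75 to 3.16 CPM on average and overlapping.

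The rest of the cascade was read from 24 genes of the Hippo pathway and the TEAD partners, all of which passed the filter. After siKLF5b, 5 were lower (beside 12.9% of all genes tested) and 2 higher (10.3%) at adjusted p alone, with a median log2FC of −0.064. Past both thresholds there were 0 in either direction, beside 1.37% of all genes lower and 1.89% higher. At an unadjusted p below 0.05 the edgeR test had 12, with the share of all genes at that p again not computed. DESeq2 called 5 lower and 3 higher at adjusted p alone. Both higher genes, named here after their values were seen, were MAP4K4, a kinase upstream of LATS (log2FC 0.36, adjusted p = 9.95e-06), and VGLL4, which competes with YAP for TEAD (log2FC 0.37, adjusted p = 7.59e-05). The 5 lower genes, named in the same way, were STK4 (log2FC −0.33), WWC2 (−0.30), NF2 (−0.27), TAOK1 (−0.21) and MOB1A (−0.17). Their adjusted p was 0.0143 or less. In siTP63b relative to siSOX2b, 15 were higher (16.4% of all genes) and 1 lower (15.4%), with a median of 0.26 and 3 higher past both thresholds (3.88%). These were AMOT, the founding angiomotin (18.5 ± 0.60 against 9.95 ± 1.32 CPM, log2FC 0.90, adjusted p = 3.33e-09), and the TEAD cofactors VGLL1 (5.44 ± 0.71 against 3.03 ± 0.49 CPM, log2FC 0.83, adjusted p = 0.000296) and VGLL2 (2.72 ± 0.18 against 1.24 ± 0.20 CPM, log2FC 1.11, adjusted p = 0.00121). Relative to siGRHL2a, 12 were higher (13.6%) and 3 lower (13.4%) in siTP63b, with a median of 0.22. VGLL1 was higher past both thresholds, as were 2.18% of all genes (1.54 ± 0.37 CPM in siGRHL2a, log2FC 1.82, adjusted p = 2.84e-09). The kinase gene STK4 and its scaffold SAV1, also named after their values were seen, were higher in siTP63b than in siSOX2b by 0.46 and 0.66 and than in siGRHL2a by 0.33 and 0.58 (adjusted p of 1.78e-06 or less). Between siSOX2b and siGRHL2a, 7 were lower (12.7%) and 4 higher (11.8%) in siSOX2b, with a median of −0.13. VGLL1 was higher past both thresholds, as were 1.05% of all genes (log2FC 0.99, adjusted p = 0.000228). Of these counts, the 7 lower genes were 4 when only the libraries of the same set were fitted. Few reads lay behind the calls of VGLL1 and VGLL2, with 44 counts for VGLL1 in siGRHL2a replicate 1 and 23 for VGLL2 in siSOX2b replicate 3. As with CCN2, there were fewer fragments still if each mate was counted on its own.

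Further YAP and TAZ targets were read from a list of 17 genes, all tested and likewise listed with earlier results known. After siKLF5b, 13 were lower (12.9% of all genes) and 2 higher (10.3%) at adjusted p alone, with a median log2FC of −0.48 beside −0.0097 over all genes. The 13 lay between −0.98 and −0.35, and the number stayed at 13 in every alternative tried. AXL, a receptor tyrosine kinase, was lower past both thresholds, as were 1.37% of all genes. It fell from 13.6, 14.7 and 13.4 CPM in siNC1 to 6.999, 7.48 and 6.36 CPM in siKLF5b (log2FC −0.98 ± 0.10, adjusted p = 1.16e-08). CCDC80, a secreted matrix protein, was the gene that rose past both, beside 1.89% of all genes. It went from 32.1, 29.2 and 32.0 CPM to 66.4, 75.9 and 71.6 CPM (log2FC 1.19 ± 0.077, adjusted p = 3.67e-13). Others of the lower genes, named after their values were seen, were F3, the tissue factor of coagulation (log2FC −0.73), IGFBP3, a binding protein for insulin-like growth factors (−0.71), and TGFB2, a TGF-beta ligand (−0.70). Their adjusted p was 1.36e-12 or less.

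Within the second set these targets had no common direction. In siTP63b relative to siSOX2b, 3 were lower (15.4% of all genes) and 5 higher (16.4%), with a median log2FC of −0.0070. Past both thresholds 2 were higher, beside 3.88% of all genes. They were IGFBP3 (475 ± 15.03 against 215 ± 8.44 CPM, log2FC 1.14, adjusted p = 1.94e-18) and AXL (94.7 ± 11.4 against 46.2 ± 1.25 CPM, log2FC 1.04, adjusted p = 5.15e-13). Relative to siGRHL2a, 3 were lower (13.4%) and 4 higher (13.6%), with a median of −0.019. AXL alone passed both thresholds and was higher, as were 2.18% of all genes (46.0 ± 3.20 CPM in siGRHL2a, log2FC 1.04, adjusted p = 6.13e-13). Between siSOX2b and siGRHL2a, 4 were lower (12.7%) and 6 higher (11.8%) in siSOX2b, with a median of 0.0032. IGFBP3 was lower past both thresholds, as were 2.27% of all genes (555 ± 15.8 CPM in siGRHL2a, log2FC −1.37, adjusted p = 1.24e-19).

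**Figure D3:**
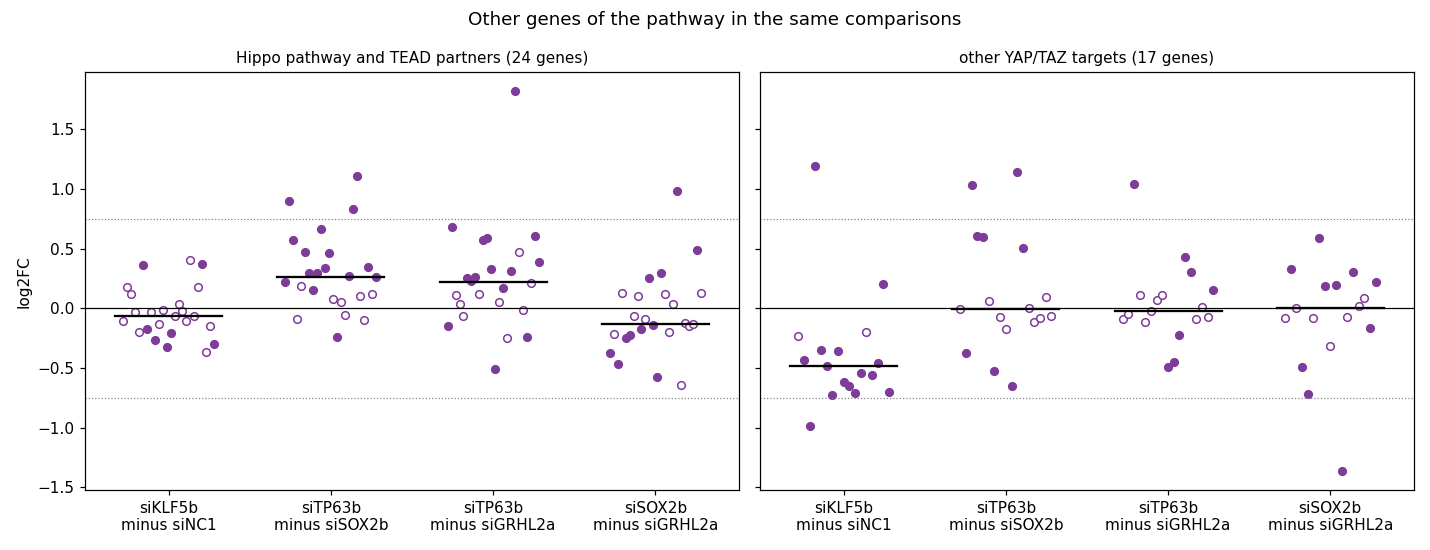
Log2FC of the 24 genes of the Hippo pathway and TEAD partners and of the 17 further YAP and TAZ targets in the 4 comparisons (points are genes, the horizontal line is 0). The targets lie mostly below 0 after siKLF5b, with a median of −0.48, and the pathway genes mostly above 0 in siTP63b relative to siSOX2b, with a median of 0.26.

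Correlations of log2 CPM over the 15 libraries, taken after the mean of each set was subtracted, describe which genes varied together. The libraries of a group share their knockdown and the pairs below were picked from 45, so these values are given without a test. ANKRD1 and AMOTL2 went together (r = 0.89), and AMOTL1 ran against ANKRD1 (r = −0.86), TEAD4 (r = −0.84) and AMOTL2 (r = −0.81). ANKRD1 and CCN2 had r = −0.73, and YAP1 and WWTR1 r = −0.17. Outside the 10 genes, those most like YAP1 among 11819 genes of at least 10 CPM were TANK (r = 0.97), MCCC1 (r = 0.97) and IKZF2 (r = 0.96). Those most like CCN2 among 11821 genes were ENSG00000237188, ENSG00000287608 and MRPS31P4, each with r = 0.92.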

How the data were processed

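RNA-seq of 15 HCC95 libraries was used. Read pairs had been mapped by the authors with HISAT2 2.2.1 (hg38), and the deposited values were unnormalized counts of uniquely mapped reads over genes of Gencode release 40 from featureCounts 2.0.1. The deposited gene lengths were whole gene spans, so that intronic reads were counted, and whether reads or fragments were counted, and on which strand, is not given in the sources used here. All 15 columns matched a library by name, and 0 were left over. Depth was 15655495 to 34229063 counts per library.

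From these counts, edgeR 4.0.16 in R 4.3.3 was run with TMM factors, filterByExpr by group and a single quasi-likelihood fit of the 15 libraries with a mean per group, with Benjamini-Hochberg adjustment over 25108 genes per comparison. DESeq2 1.42.0, the tool of the study, was an alternative here. The thresholds were those of the study, 0.05 for the adjusted p and 0.75 for the absolute log2FC, and "rose" or "fell" means that the former was met. The SE is the absolute log2FC divided by the square root of F. Correlations used log2 CPM (prior count 2). The steps were tested on simulated data.

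The 10 genes and the other lists were chosen with earlier results of these data known. The genes named were the 10, the targeted factors, the up to 5 genes of each other list with the smallest adjusted p among those past both thresholds, genes overlapping one of the 10 with at least 10% as many counts, and the 3 genes most like YAP1 and CCN2, and exceptions are stated. Names and positions came from the table, all 10 spans being the same in Gencode release 44, where all 10 are protein coding, and promoters came from RefSeq. Alternatives were DESeq2, RLE size factors, a filter of 10 counts in all libraries, no filter, a replicate block, fits of one column set alone, a log2FC threshold of 0 or 1, leaving out each library and, chosen after seeing the data, halved counts in the second set and the counts at adjusted p alone and of the other lists. Protein sequences were not used here.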

Additional observations from a re-analysis of the deposited data

How the results depend on the processing

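Of the 40 differences of the 10 genes, 28 kept their direction and their side of an adjusted p of 0.05 in every alternative. In 5 with small, uncalled values the sign turned when a library was left out. LATS2 then ranged from −0.023 to 0.082 (siKLF5b minus siNC1), with −0.0095 without siNC1 replicate 3, and from −0.11 to 0.058 (siTP63b minus siSOX2b). CCN2 ranged from −0.090 to 0.093 (siTP63b minus siSOX2b), −0.0044 to 0.11 (siTP63b minus siGRHL2a) and −0.040 to 0.14 (siSOX2b minus siGRHL2a). In 5 others (WWTR1 in siKLF5b and in siTP63b minus siSOX2b, LATS2 in both comparisons with siGRHL2a, and TEAD4 in siSOX2b minus siGRHL2a) a called difference did not pass in some alternatives, and in 2 an uncalled one passed. WWTR1 also failed without the low-count filter, with adjusted p of 0.0816 in siKLF5b and 0.112 in siTP63b minus siSOX2b, and in the latter with the same column set alone (0.0707).

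With no fold threshold the counts of lower and higher genes were 4 and 3 in siKLF5b, 2 and 5 in siTP63b minus siSOX2b, 2 and 6 in siTP63b minus siGRHL2a, and 1 and 3 in siSOX2b minus siGRHL2a. Above an absolute log2FC of 1, the 1 higher gene of siKLF5b, CCN2, became 0, and with a library left out it was 0 to 1. At adjusted p alone, the 2 lower genes of siTP63b minus siSOX2b were 1 with no low-count filter, 1 with the same column set only and 1 to 3 with a library left out, and the 1 lower gene of siSOX2b minus siGRHL2a was 0 to 1. Of the Hippo pathway and TEAD partners, those higher in siKLF5b were 4 with the same column set only, those lower in siSOX2b minus siGRHL2a were 4 with no low-count filter, 4 with the same column set only and 4 to 5 with a library left out, and those lower in siTP63b minus siSOX2b and siTP63b minus siGRHL2a were 0 to 1 and 1 to 3 with a library left out. The further targets higher in siKLF5b were 1 to 2. The lowest of these ranges came without siNC1 replicate 1, siKLF5b replicate 1 or siKLF5b replicate 3 for the further targets, and for the pathway genes without siTP63b replicate 1 or 2 (siTP63b minus siSOX2b), siTP63b replicate 2 (siTP63b minus siGRHL2a) and siGRHL2a replicate 1 or 3 (siSOX2b minus siGRHL2a). The same-set and left-out fits hold fewer libraries, and otherwise the cause was not tested.

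The replicate numbers shared by the groups gave no clear pairing of the libraries. Deviations of same-numbered libraries from their group mean correlated at −0.031 to 0.034 over 12 pairs. In 11 of 24 cases a library correlated best with its own number among the 3 of the other group. That count was not set against a chance level. With the replicate number as a block, 1 of the 10 genes was lower and 1 higher in siKLF5b, over all genes 337 were lower and 468 higher in place of 343 and 475, and no call of the 10 genes changed. Depth limits CCN2 most, at 27 to 98 counts per library.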
